A study of Mus musculus with 48 samples.

Results

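Whole skin from the ventral side of C57BL/6 mice was compared between catagen, the regression phase of the hair cycle, and refractory telogen, the rest phase that follows it. The comparison rests on 4 libraries, 2 of ventral catagen skin and 2 of ventral refractory telogen skin, which were picked by the column names of the deposited table out of 43 skin libraries in 18 groups of domain and stage. The other groups were ventral, dorsal and chin skin at competent telogen, early, mid and late anagen, catagen and refractory telogen, and of these the dorsal pair of stages (4 libraries) and the chin pair (6 libraries) were used for comparison. All of these mice carried the same strain label, with no allele and no agent named, and the labels gave neither age nor sex. The table held 46983 genes, of which 16260 reached 0.5 FPKM in at least 2 of the 4 libraries and were tested. FPKM, fragments per kilobase of transcript for a fixed number of mapped fragments, is a level scaled to transcript length and to the total of each library. Nothing in the labels said that replicates came from separate mice, so p-values measure the spread between these libraries, which may be technical.

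A hair follicle grows a pigmented shaft in anagen from dividing matrix cells at its base, with melanocytes beside them. In catagen the matrix stops dividing and its lower part is removed by cell death, and in telogen a small follicle rests around its bulge stem cells. Early telogen is called refractory because follicles then resist growth cues, a state known for high BMP signaling in the skin around them, whereas WNT and Hedgehog signals accompany the return to growth. Whole skin also holds epidermis, dermis, fat, a thin muscle layer, vessels and immune cells, and the ventral skin of mice lies over the mammary glands. In such bulk samples, fewer cells of a type and less RNA per cell cannot be told apart.

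The labels and the replicates were examined first. For catagen replicate 1 the tissue location label read ear rostral, against its title, while its column was named as ventral. Summed FPKM of 17 Hox genes of the trunk was 40.9 and 33.2 in the catagen libraries, 35.9 and 39.9 in the refractory telogen libraries, and 6.41 to 8.76 in 5 ear libraries. Summed FPKM of 11 cartilage genes was 4.79 and 3.92 in catagen, against 1726 to 2142 in the ear cartilage and muscle libraries and 4.04 and 3.83 in 2 ear skin libraries, so cartilage genes did not separate ventral skin from ear skin. Both catagen libraries thus had summed Hox levels near those of the refractory telogen libraries and above those of the ear libraries. Other ventral stages and chin skin were not part of this check. The root mean square difference over genes between the catagen libraries was 0.491 on the log2(FPKM + 1) scale. The refractory telogen replicates differed by 0.695, the largest value among 32 pairs of replicates in the table (median 0.409), and 1380 genes lay over 1 log2 unit apart between them, against 456 between the catagen replicates. Distances between a catagen and a refractory telogen library were 0.847 to 0.881. Estimated depths were 8695373 and 10851033 fragments for catagen and 14873372 and 16459830 for refractory telogen, within a range of 6838395 to 24967760 over the table. Stage labels were set against 38 cell cycle genes and 15 melanocyte genes. The mean log2 level of the cell cycle genes was 3.98 in ventral catagen (median over libraries), 3.72 in late anagen, 4.55 in competent telogen, 2.29 in early anagen and 2.42 in refractory telogen. For the melanocyte genes these levels were 4.28, 4.18, 3.69, 1.54 and 1.69 in the same order. The libraries labelled ventral catagen therefore held cell cycle and pigment genes at or above the late anagen level, and those labelled early anagen resembled refractory telogen in these genes. For 14 hair shaft keratins the levels were 8.65, 8.55, 6.42, 6.93 and 8.235 in the same order. The libraries labelled refractory telogen thus held shaft keratins nearer to the late anagen level than to the competent telogen level. Whether the labels marked the same follicle state in all groups was not tested.

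Of the 16260 genes, 3158 (19.4%) were higher and 4060 (25.0%) were lower in refractory telogen at an adjusted p under 0.05 in limma, a linear model with a moderated test, fitted to log2(FPKM + 1) of all 43 libraries with Benjamini-Hochberg adjustment. When the spread was taken from the 4 libraries alone, 597 genes (3.67%) were higher and 439 (2.70%) were lower, and 4500 genes had an unadjusted p under 0.05. A total of 585 genes were higher and 424 lower in both fits. The 2 groups of libraries did not overlap for 58.2% of the genes tested. The median log2 difference of all genes was -0.09, and 123 called genes were over 4-fold higher and 128 over 4-fold lower. The share of calls that were higher was 43.8%, and it was 31.6% without refractory telogen replicate 1 and 55.0% without replicate 2, so the split by direction rested on which of these 2 libraries was used. In what follows a gene rose or fell where it passed in the fit of 43 libraries. Differences are log2 of refractory telogen over catagen with their standard error, and the count of a list that also passed among the 4 libraries alone is given after it. These errors pool the spread of 18 groups and may be too small here, since the refractory telogen replicates differed by 0.695 against a median of 0.409. A total of 442 of the genes tested reached the filter only through the refractory telogen libraries and 514 only through the catagen libraries, and since such genes could lie only on that side, the counts of a list that held any are also given without them. Where leaving out 1 library moved the larger of the 2 counts of a list by over 1.5 times, the counts are given without catagen replicate 1, catagen replicate 2, refractory telogen replicate 1 and refractory telogen replicate 2, in that order, and fewer genes may then reach the filter. The lists and their members were set with earlier results of these data known, so their counts are descriptions.

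**Figure D1:**
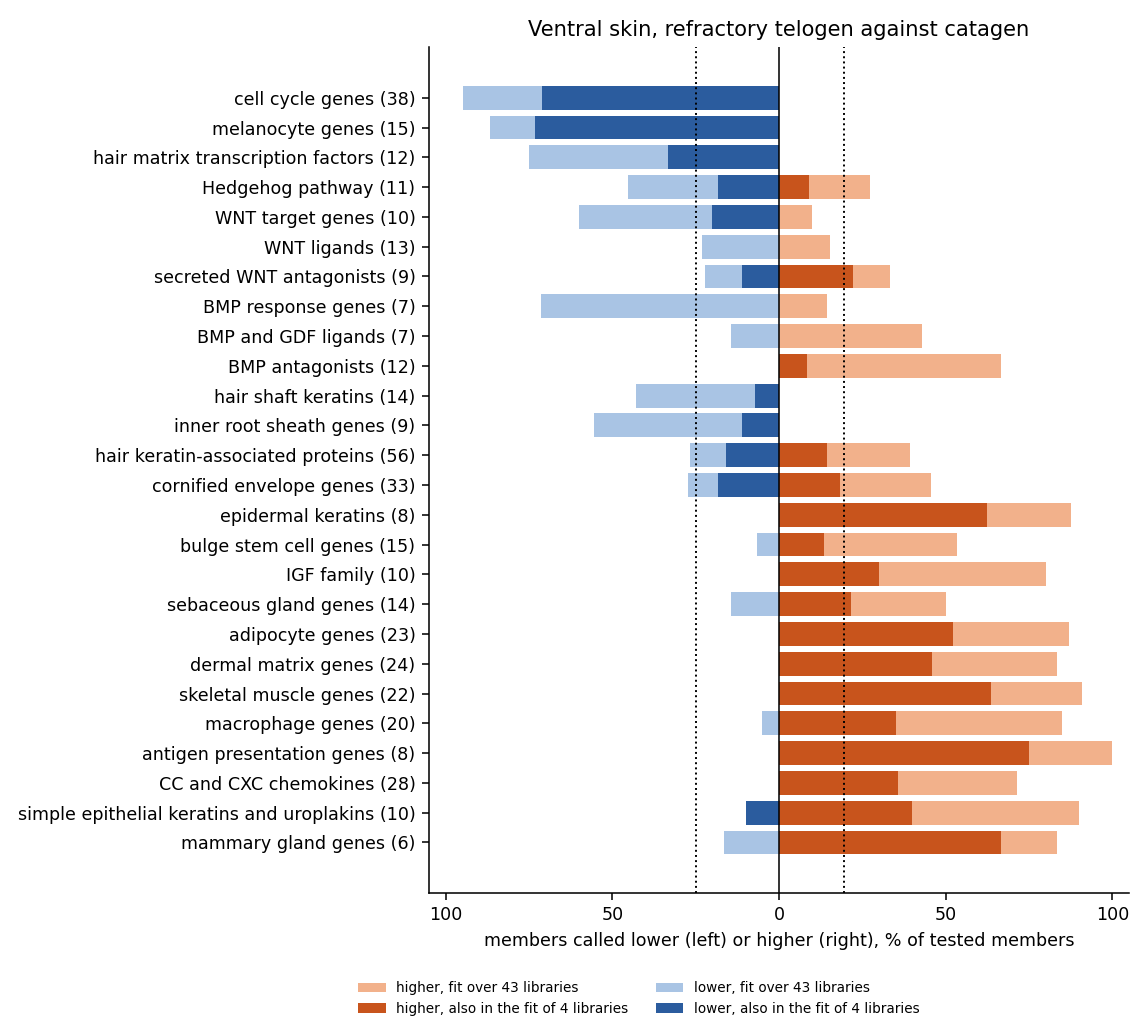
Percent of the tested genes of each list that were higher (right) or lower (left) in ventral refractory telogen than in ventral catagen, at an adjusted p under 0.05 in the limma fit of 43 libraries. Darker bars mark the genes that also passed among the 4 libraries alone, numbers in parentheses the genes tested, and dotted lines the percent over all genes tested, 19.4% higher and 25.0% lower. Cell cycle and melanocyte genes lie to the left and skeletal muscle, adipocyte, dermal matrix and antigen presentation genes to the right.

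Pigment genes fell as a group. Of 15 melanocyte genes tested, 13 fell and none rose, with a median log2 difference of -2.58, and 11 also passed among the 4 libraries alone. Without 4 genes that reached the filter only through catagen, 9 of 11 fell. Pmel, which builds the fibrils of the melanosome (chr10:128704195-128720238), was at 116 and 118 FPKM in catagen and 3.38 and 1.9 in refractory telogen. That is a 44.4-fold lower mean, with a log2 difference of -5.05 ± 0.26 (adjusted p = 8.77e-15, and 0.00589 among the 4 libraries). Mlana, a melanosome membrane protein, was at 183 and 198 FPKM in catagen and 4.61 and 6.15 in refractory telogen. Dct and Tyrp1, enzymes of eumelanin synthesis, differed by -4.46 ± 0.18 and -4.72 ± 0.27, and the channel gene Trpm1 by -3.88 ± 0.22. Kit, the receptor that melanocytes and mast cells share, fell less, from 6.25 and 6.65 to 3.86 and 1.92 FPKM. Gpnmb, a glycoprotein related to Pmel, went from 139 and 143 to 7.52 and 5.14 FPKM and Ptgds, a prostaglandin D synthase, from 260.2 and 276 to 12.2 and 11.7. In none of these genes did a refractory telogen library reach a catagen library, a separation that the choice of named genes favoured. Across the ventral cycle Dct was at 107, 106 and 105.1 FPKM in late anagen and at 7.81, 6.66 and 5.84 in early anagen, so the 2 refractory telogen libraries lay below all ventral libraries of the other stages.

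Genes of cell division fell as well. Of 38 cell cycle genes, 36 fell and none rose, with a median of -1.52, and 27 also passed among the 4 libraries alone. Leaving out each library in turn left 36 or 37 lower. Cdk1, the kinase that drives entry into mitosis (chr10:69335146-69352938), was at 65.3 and 74.9 FPKM in catagen and 16.3 and 15.6 in refractory telogen (log2 difference -2.07 ± 0.22, adjusted p = 1.40e-08). Mki67, the proliferation antigen, was at 10.2 and 10.2 FPKM in catagen and 2.16 and 1.61 in refractory telogen. Aurkb, a kinase of chromosome segregation, had the largest difference of the list, -2.60 ± 0.19, and the cyclin Ccnb2 and the mitotic activator Cdc20 differed by -1.89 and -1.63. The replication genes Mcm5 and Pcna fell by 2.04 and 1.00 on the log2 scale. The 2 genes that did not pass were Ttk, a spindle checkpoint kinase, with 3.42 and 3.9 FPKM in catagen and 4.42 and 1.75 in refractory telogen, and E2f1, with 2.91 and 2.11 FPKM in catagen and 2.19 and 1.58 in refractory telogen. Both had a refractory telogen library within or above the catagen range, and Ttk passed as lower without refractory telogen replicate 1 (adjusted p = 4.65e-04). The histone gene Hist1h2ag was at 11.2 and 14.3 FPKM in catagen and listed at 0 in both refractory telogen libraries, and it belongs to a family of near-identical genes among which reads may be split.

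**Figure D2:**
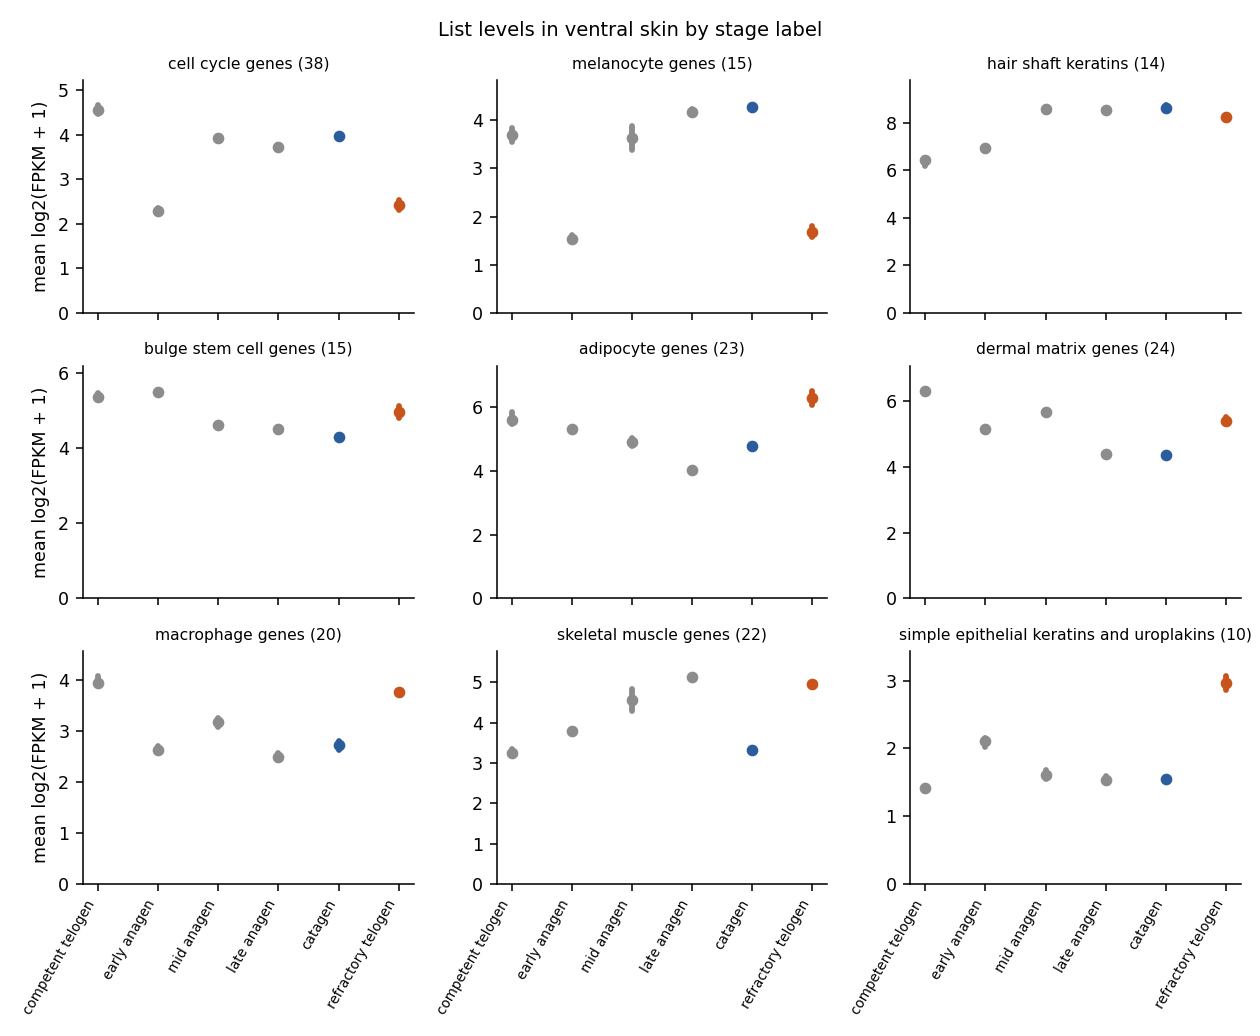
Mean log2(FPKM + 1) of the genes of 9 lists (number of genes in parentheses) in ventral skin by stage label, with a point at the median and a bar from the lowest to the highest library, catagen in blue and refractory telogen in orange. Cell cycle and melanocyte genes are low in early anagen and refractory telogen and high in the other 4 stages, and simple epithelial genes are highest in refractory telogen.

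The promoters of members of both groups are shown with short motifs known for them, in RefSeq sequence of GRCm38.p6, each stretch running 5′ to 3′ on the gene's strand and ending 20 bases after the annotated start. The melanocyte genes are shown for the M-box TCATGTG, known as a site of the pigment cell factor Mitf, and the cell cycle genes for the cell cycle homology region TTTGAA. Capitals mark the motif. Tyrp1 is from chr4:80834053-80834232 (plus strand), Dct from chr14:118052227-118052406 (minus), Trpm1 from chr7:64153675-64153854 (plus), Cdc20 from chr4:118437324-118437503 (minus), Ccnb2 from chr9:70421535-70421714 (minus) and Cdk1 from chr10:69352893-69353072 (minus).
Tyrp1: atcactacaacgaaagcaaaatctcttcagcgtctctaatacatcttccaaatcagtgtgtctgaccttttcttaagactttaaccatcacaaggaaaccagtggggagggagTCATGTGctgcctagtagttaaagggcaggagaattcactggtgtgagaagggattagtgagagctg
Dct: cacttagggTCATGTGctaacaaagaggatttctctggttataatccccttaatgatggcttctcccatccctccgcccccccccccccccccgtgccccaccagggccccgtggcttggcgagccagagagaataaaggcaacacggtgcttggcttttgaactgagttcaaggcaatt
Trpm1: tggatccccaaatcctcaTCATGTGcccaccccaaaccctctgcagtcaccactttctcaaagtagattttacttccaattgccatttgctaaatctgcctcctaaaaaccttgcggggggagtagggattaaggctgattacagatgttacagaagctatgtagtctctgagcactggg
Cdc20: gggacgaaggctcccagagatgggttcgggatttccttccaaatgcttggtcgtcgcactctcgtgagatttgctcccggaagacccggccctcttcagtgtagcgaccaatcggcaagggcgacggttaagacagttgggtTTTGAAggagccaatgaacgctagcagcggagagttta
Ccnb2: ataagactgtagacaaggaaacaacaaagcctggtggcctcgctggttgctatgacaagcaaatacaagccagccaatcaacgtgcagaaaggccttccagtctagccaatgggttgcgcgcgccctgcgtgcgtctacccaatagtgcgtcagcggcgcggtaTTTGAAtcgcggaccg
Cdk1: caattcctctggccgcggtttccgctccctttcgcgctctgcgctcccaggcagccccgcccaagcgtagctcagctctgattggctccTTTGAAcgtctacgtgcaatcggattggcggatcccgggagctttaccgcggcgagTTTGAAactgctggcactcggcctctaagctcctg

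Both strands of the window from 250 bases before to 50 bases after the start were searched. The M-box was found in 6 of the 10 melanocyte genes with a promoter entry, against 4.3% of 27018 genes. The cell cycle homology region was found in 18 of 32 cell cycle genes, against 20.2% of all genes, and CCAAT, the box that often lies beside it, in 26 of 32, against 41.1%. A match describes letters in the window and does not show a bound site. Of the 9 melanocyte genes that fell and had a promoter entry, 6 held the M-box, and of the 30 such cell cycle genes 17 held TTTGAA.

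Hedgehog pathway genes, which report on and carry the growth signal of the same name, changed in both directions. Of 11 tested, 5 fell and 3 rose, and 2 and 1 also passed among the 4 libraries alone. Gli1 and Hhip reached the filter only through catagen and Dhh only through refractory telogen, and of the other 8 genes 3 fell and 2 rose. Gli1, the transcription factor used as a readout of the pathway, was at 3.04 and 3.4 FPKM in catagen and 0.48 and 0.34 in refractory telogen (log2 difference -1.58 ± 0.14, adjusted p = 4.18e-10). Hhip and Ptch1, which bind the ligand and are induced by it, fell by 1.25 and 1.23 on the log2 scale. Gas1, a co-receptor at the cell surface, moved the other way, from 34.1 and 30.5 to 128 and 93.8 FPKM (1.73 ± 0.13). The ligand Shh was at 3.25 and 3.71 FPKM in catagen and 2.14 and 0.6 in refractory telogen, so that the replicates of refractory telogen were far apart. It passed in the fit of 43 libraries (adjusted p = 0.00154) and not among the 4 libraries (adjusted p = 0.167) or without refractory telogen replicate 2 (log2 difference -0.51, adjusted p = 0.114). The receptor Smo was at 8.37 and 9.19 FPKM in catagen and 7.28 and 7.12 in refractory telogen and did not pass. With each library left out in turn, 3, 3, 5 and 4 of the genes were lower and 2, 2, 1 and 1 were higher.

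WNT pathway genes are given by role. Among the ligands, 2 of 13 rose and 3 fell, shares no larger than the 19.4% and 25.0% of all genes, and none passed among the 4 libraries alone. Wnt7b rose from 4.35 and 3.89 to 13.5 and 8.48 FPKM and Wnt5a fell from 26.4 and 25.3 to 21.1 and 11.6, while Wnt10a and Wnt10b, ligands known from the start of growth, did not pass. The call of Wnt5a was lost without refractory telogen replicate 2 (adjusted p = 0.195), and Wnt10a passed as lower without refractory telogen replicate 1 (adjusted p = 0.0307). Of 9 secreted antagonists, 3 rose and 2 fell, 2 and 1 of them also in the 4 libraries alone. Dkk2, which blocks the WNT co-receptor, was at 1.88 and 2.03 FPKM in catagen and 7.03 and 7.91 in refractory telogen. Dkkl1, a relative of the Dkk proteins, was at 21.9 and 22.8 FPKM in catagen and 82.7 and 116 in refractory telogen (2.09 ± 0.21). Wif1, which binds WNT ligands, went down from 23.8 and 22 to 4.64 and 5.32 FPKM, a 4.6-fold lower mean, and Sfrp1 fell by 0.49 on the log2 scale. Among WNT target genes 6 of 10 fell and 1 rose. Lef1, a factor of the pathway that is also high in the hair matrix, was at 45.4 and 47.2 FPKM in catagen and 11.2 and 5.26 in refractory telogen (-2.43 ± 0.23). The feedback ligases Znrf3 and Rnf43 fell by 1.15 and 0.74, and only Lef1 and Znrf3 of the targets passed among the 4 libraries. Axin2, the usual readout, was at 5.2 and 6.76 FPKM in catagen and 5.78 and 4.29 in refractory telogen and did not pass (adjusted p = 0.226, and 0.0458 without refractory telogen replicate 1). Over the 4 fits without 1 library, 1, 3, 5 and 1 ligands and 6, 6, 9 and 5 targets were lower. The target gene that rose was Lgr5, a receptor of follicle stem cells, from 5.68 and 5.23 to 15 and 11.1 FPKM.

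BMP genes, the signal for which refractory telogen is known, are given by role, beside 19.4% of all genes that rose and 25.0% that fell. Of 7 ligands tested, 3 rose and 1 fell, of 12 antagonists 8 rose and none fell (7 of 11 without Chrd, which reached the filter only through refractory telogen), and of 7 response genes 1 rose and 5 fell. Among the 4 libraries alone the only BMP gene to pass was the antagonist Nbl1, which was at 28.2 and 26.7 FPKM in catagen and 85.7 and 73.8 in refractory telogen (1.5 ± 0.14, adjusted p = 0.0258 there). Bmp4 was at 24.8 and 26.7 FPKM in catagen and 41.7 and 30.7 in refractory telogen, a log2 difference of 0.46 ± 0.14 that did not pass without catagen replicate 1 or without refractory telogen replicate 1 (adjusted p = 0.0619 and 0.19). Bmp2, a ligand known from refractory telogen of dorsal skin, was at 9.65 and 9.8 FPKM in catagen and 8.67 and 6.79 in refractory telogen and fell by 0.31, a call that was lost without either catagen library and without refractory telogen replicate 2 (log2 difference -0.15, adjusted p = 0.42). Gdf10 rose from 3.23 and 4.08 to 12 and 7.23 FPKM. The antagonists Fst, Sostdc1 and Grem1 rose by 0.84, 0.74 and 1.11 on the log2 scale, and Nog was at 0.6 and 0.65 FPKM in catagen and 1.98 and 0.63 in refractory telogen and did not pass, except without refractory telogen replicate 2 (adjusted p = 0.00131). Of the response genes, Id2 and Id3 fell by 0.55 and 0.52, Id4 rose by 0.91, and Id1 was at 164 and 129.6 FPKM in catagen and 117 and 213 in refractory telogen, with the groups overlapping. The call of Id2 was lost without refractory telogen replicate 2 (-0.29), that of Id3 without catagen replicate 1 (-0.34) or refractory telogen replicate 1 (-0.18), and that of Id4 without catagen replicate 2 (0.51) or refractory telogen replicate 1 (0.57), while Id1 passed without refractory telogen replicate 1 (0.55). When each library was left out, 1, 4, 4 and 2 response genes were lower and 2, 3, 1 and 3 ligands were higher.

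Most IGF genes rose, and the other growth factor lists held more genes that rose than fell by margins that depended on the libraries. Of 10 IGF genes 8 rose and none fell (3 among the 4 libraries alone), and Igf1 itself, a growth factor made in dermis and fat, was at 12 and 9.55 FPKM in catagen and 29.1 and 30.6 in refractory telogen. Of 12 TGF-beta and activin genes 7 rose and 1 fell (1 and 0 among the 4 libraries alone), of 10 EGF genes 5 rose and 1 fell (1 and 0), and of 12 FGF genes 5 rose and 2 fell (0 and 1). Ltbp2 reached the filter only through refractory telogen and Nrg1 only through catagen, and without them 6 TGF-beta and activin genes rose and 1 fell, and 5 EGF genes rose and none fell. Without each library in turn, 5, 5, 4 and 6 TGF-beta and activin genes, 2, 2, 3 and 3 EGF genes and 4, 5, 3 and 6 FGF genes were higher. The counts lower were 1, 1, 1 and 0 for TGF-beta and activin, 0, 0, 3 and 1 for EGF and 2, 2, 3 and 1 for FGF. Btc, the EGF receptor ligand betacellulin, was at 10.9 and 10.5 FPKM in catagen and 44 and 40 in refractory telogen. Fgf5, the ligand whose loss prolongs anagen, was at 8.54 and 8.1 FPKM in catagen and 1.72 and 1.6 in refractory telogen (-1.81 ± 0.24). Its highest ventral levels were in mid anagen, at 11.14 and 10.86 FPKM, and late anagen was at 5.24, 5.85 and 4.84. Of 18 cell death genes 3 rose and 1 fell, shares below those of all genes, and none passed among the 4 libraries. With each library left out in turn, 2, 3, 2 and 6 of them were higher and 0, 1, 3 and 2 lower.

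Genes of the hair shaft and its sheaths fell by less than the pigment and division genes. Of 14 hair shaft keratins 6 fell and none rose, with a median of -0.42, and 1 passed among the 4 libraries alone. This was Krt35, a keratin of the early shaft, at 1086 and 859.6 FPKM in catagen and 369 and 381 in refractory telogen. Over the 4 fits without 1 library, 3, 7, 8 and 4 shaft keratins and 5, 5, 7 and 3 sheath genes were lower. Of 9 inner root sheath genes 5 fell (1 among the 4 libraries alone), with Krt71 at 9594 and 8981 FPKM in catagen and 7845 and 5335 in refractory telogen, a call that was lost without refractory telogen replicate 2 (log2 difference -0.24, adjusted p = 0.164). Of 12 transcription factors of the hair matrix 9 fell (4 among the 4 libraries alone), with Foxq1 at 58.2 and 49.9 FPKM in catagen and 18.4 and 15 in refractory telogen. Summed FPKM of the shaft keratins was 13813 and 11592 in catagen and 9512 and 10384 in refractory telogen, 0.892% to 1.25% of all FPKM. Both refractory telogen sums were below both catagen sums.

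The keratin-associated proteins, the matrix in which shaft keratins are embedded, went both ways and included the largest rise among genes with a name of their own. Of 56 tested, 22 rose and 15 fell (8 and 9 among the 4 libraries alone), and the median was 0.06 and changed sign among the alternatives, from -0.04 to 0.15 with other settings and from -0.09 to 0.39 without 1 library. Krtap20-2 (chr16:89205861-89206394) was at 10.2 and 9.57 FPKM in catagen and 2272 and 3139.9 in refractory telogen. Its mean was 274-fold higher, with a log2 difference of 7.94 ± 0.24 (adjusted p = 5.82e-20, and 0.00112 among the 4 libraries). Krtap6-3 (chr16:89084015-89084534) was at 207 and 285 FPKM in catagen and 6139 and 6909 in refractory telogen. Krtap21-1, chosen after its values were seen, went from 834 and 994 to 3642 and 3579 FPKM. On the same chromosome Krtap19-1 (chr16:88868917-88869411) and Krtap19-2 fell, from 1113 and 1295 to 76.9 and 82.5 FPKM and from 1277 and 1466 to 94.1 and 109. Krtap15 and Krtap14, also chosen after their values were seen, differed by -3.39 ± 0.40 and -3.13 ± 0.38. In each of these genes the distance between the groups was far above that between replicates, though the choice of genes favoured this. Between Krtap6-3 and Krtap20-2 on chromosome 16 lay 5 protein-coding gene models that rose by more than any gene named so far except Krtap20-2, also chosen after their values were seen. The largest rise of all genes tested was that of 1110057P08Rik (chr16:89174735-89175199), which was at 0 and 0.3 FPKM in catagen and 3572 and 3842 in refractory telogen, with a log2 difference of 11.67 ± 0.42 (adjusted p = 1.22e-18). Gm6358 was at 17.8 and 13.7 FPKM in catagen and 17019 and 15536 in refractory telogen and Gm7735 at 48.1 and 83.9 FPKM in catagen and 21223 and 20251 in refractory telogen. Gm9789 and Gm10061 differed by 8.62 ± 0.50 and 7.29 ± 0.29. These models are not in the family's list or in its counts and sums, and whether they share reads with its members was not tested.

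By subfamily the directions were uniform in several cases. All 4 tested genes of subfamily 6 rose, as did 7 of 8 of subfamily 4 and both of subfamily 31, and 6 of 7 of subfamily 19 fell and none rose. On chromosome 11 the count was 16 higher and none lower of 23, with a median of 0.75, and on chromosome 16 it was 6 higher and 14 lower of 24, with a median of -0.77. Summed over the family, FPKM was 102796 and 108220 in catagen and 107271 and 133832 in refractory telogen, 9.27% to 11.5% of the total, and the sums of the groups overlapped. Genes of a subfamily are similar in sequence and can share reads, so values of single members are uncertain where copies are near-identical.

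Promoters of 2 members that rose and 1 that fell are shown with the letters TATAA in capitals, from the same source and to the same end point. Krtap20-2 is from chr16:89205701-89205880 (plus strand), Krtap6-3 from chr16:89083864-89084043 (plus) and Krtap19-1 from chr16:88869391-88869570 (minus).
Krtap20-2: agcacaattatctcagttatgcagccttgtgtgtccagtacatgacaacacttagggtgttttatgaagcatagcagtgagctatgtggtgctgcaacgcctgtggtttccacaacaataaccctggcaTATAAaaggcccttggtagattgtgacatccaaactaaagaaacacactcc
Krtap6-3: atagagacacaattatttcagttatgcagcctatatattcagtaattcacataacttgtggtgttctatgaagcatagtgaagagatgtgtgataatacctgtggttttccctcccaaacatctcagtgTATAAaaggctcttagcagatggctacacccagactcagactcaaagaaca
Krtap19-1: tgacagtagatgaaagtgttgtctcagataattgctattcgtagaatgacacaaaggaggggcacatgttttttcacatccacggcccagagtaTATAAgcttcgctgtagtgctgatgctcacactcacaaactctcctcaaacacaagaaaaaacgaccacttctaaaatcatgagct

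The letters TATAA were in all 50 members with a promoter entry, on either strand, against 28.0% of all genes. The longer TATAAA, which overlaps it, was in 41 of 50, against 15.7% of all genes. It was in 20 of the 21 members that rose and in 6 of the 13 that fell. The members that fell without it were Krtap14, Krtap15, Krtap19-1, Krtap19-2, Krtap19-3, Krtap19-4 and Krtap27-1, all on chromosome 16. Related neighbours are not independent, so these counts do not tie the motif to a direction. In the stretches shown, the first base of the motif lay at position -31 in Krtap20-2 and Krtap6-3 and at -66 in Krtap19-1, counted back from the annotated start.

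**Figure D3:**
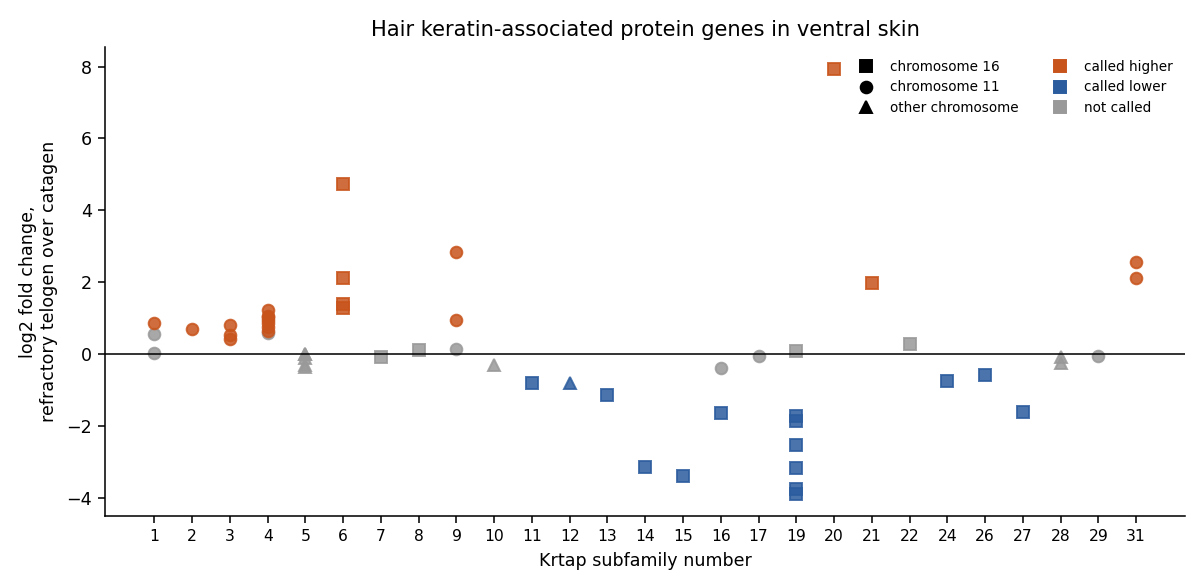
Log2 difference of refractory telogen over catagen in ventral skin (vertical) for each tested keratin-associated protein gene, by subfamily number (horizontal), with the shape of a point for the chromosome and its colour for the call. Krtap20-2 lies highest, at 7.94, and genes of subfamilies 14, 15 and 19 lie lowest.

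Genes of the bulge, the stem cell niche that remains in telogen, rose more often than they fell. Of 15 tested 8 rose and 1 fell, with a median of 0.48, and 2 passed among the 4 libraries alone. Krt15, the bulge keratin, was at 594 and 547 FPKM in catagen and 2180.4 and 1539 in refractory telogen, a 3.26-fold higher mean (1.68 ± 0.17, adjusted p = 1.08e-08). Postn, a matrix protein of the niche and the dermis, was at 18.6 and 21.9 FPKM in catagen and 64.3 and 53.1 in refractory telogen. Cd34 and Col17a1, surface proteins of bulge cells, rose by 1.01 and 1.36 on the log2 scale, and Nfatc1, a factor that keeps these cells quiescent, by 1.06. Lhx2, Tcf7l1 and Runx1 did not pass, and Nfib fell by 0.24, a call that was lost without catagen replicate 2 or refractory telogen replicate 2. Lhx2 passed without catagen replicate 1 and Tcf7l1 without refractory telogen replicate 1. Krt15 was higher still in early anagen, at 5511, 5659 and 6043 FPKM.

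Epidermal keratins rose in 7 of 8 cases, 5 of them also in the 4 libraries alone, and in 6 of 7 without Krt2, which reached the filter only through refractory telogen. Krt1 and Krt10, the keratin pair of the differentiating layers, were at 20.7 and 23 FPKM in catagen and 186 and 127 in refractory telogen and at 186 and 162 FPKM in catagen and 855 and 681 in refractory telogen respectively. Krt14 of the basal layer went from 1814 and 1619 to 3915 and 3898 FPKM. Genes of the cornified envelope were split, with 15 of 33 higher and 9 lower (6 and 6 among the 4 libraries alone, and 15 and 7 of 31 without 2 genes that reached the filter only through catagen), and those that fell included Sprr1b (442 and 318 to 12.8 and 21.2 FPKM), Lce3d and Lce3c, members of families whose copies can share reads. Of 14 sebaceous gland genes 7 rose and 2 fell (3 and 0 among the 4 libraries alone), with Scd1, a desaturase, at 59.1 and 67.9 FPKM in catagen and 504 and 199 in refractory telogen. When each library was left out, 15, 13, 20 and 10 cornified envelope genes were higher and 7, 6, 8 and 9 lower, and 1, 2, 4 and 1 sebaceous genes were lower.

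Genes of fat, dermis and muscle rose together. Of 23 adipocyte genes 20 rose and none fell, with a median of 1.42, and 12 passed among the 4 libraries alone. Thrsp, a regulator of lipid synthesis (chr7:97412938-97417730), was at 18.2 and 21.1 FPKM in catagen and 226 and 192 in refractory telogen (3.34 ± 0.28). Retn, the fat hormone resistin, was at 43.3 and 49.1 FPKM in catagen and 260.4 and 331 in refractory telogen, and Adipoq, adiponectin, at 91.7 and 99.9 FPKM in catagen and 421 and 509.6 in refractory telogen. Of 24 dermal matrix genes 20 rose and none fell, 11 also in the 4 libraries alone. Col3a1, a fibrillar collagen, was at 209 and 211 FPKM in catagen and 791 and 569 in refractory telogen, and Sparc, a protein that binds collagen, rose by 1.70 ± 0.12. Of 22 skeletal muscle genes 20 rose and none fell, with a median of 1.72, and 14 passed among the 4 libraries alone. Without 2 genes that reached the filter only through refractory telogen, 18 of 20 rose. Pvalb, a calcium buffer of fast fibres, was at 5.04 and 6.68 FPKM in catagen and 47.9 and 91 in refractory telogen, and the troponin Tnnc2 at 70.5 and 66 FPKM in catagen and 353 and 327 in refractory telogen. In each gene named here every refractory telogen library was above every catagen library, a separation that the choice of named genes favoured.

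Summed FPKM of the 24 muscle genes was 509 and 467 in catagen and 1754 and 1854 in refractory telogen, and their mean log2 level was 3.33 in ventral catagen, 4.96 in refractory telogen and 5.14 in late anagen (medians over libraries). Muscle genes mark tissue below the dermis, and the part that dissection depth had in the rises of fat, matrix and muscle genes was not tested. Of 10 smooth muscle genes 8 rose and none fell (2 among the 4 libraries alone, and 7 of 9 without Itga8, which reached the filter only through refractory telogen). Of 15 vessel genes 7 rose and none fell (2 among the 4 libraries alone), and of 8 nerve sheath genes 5 rose and none fell (1 among the 4). Without each library in turn, 7, 5, 4 and 10 vessel genes were higher.

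Immune genes of most lists rose as well, but not the neutrophil list, of which only 3 of 10 genes were tested. Of 8 antigen presentation genes all 8 rose, 6 of them also in the 4 libraries alone, with H2-Aa, a class II chain, at 81.5 and 90.9 FPKM in catagen and 240.5 and 299 in refractory telogen and Cd207, langerin of Langerhans cells, at 1.11 and 0.87 FPKM in catagen and 6.84 and 5.16 in refractory telogen. Of 20 macrophage genes 17 rose and 1 fell (7 and 0 among the 4 libraries alone), with Lyz2, lysozyme, at 60.8 and 65 FPKM in catagen and 194 and 195 in refractory telogen. Of 28 chemokines tested 20 rose and none fell, 10 also in the 4 libraries alone, and Ccl2, which attracts monocytes, was at 1.86 and 2.43 FPKM in catagen and 12.7 and 15.5 in refractory telogen. Without the genes that reached the filter only through refractory telogen, 7 of 7 antigen presentation genes, 16 of 19 macrophage genes and 17 of 24 chemokines rose. Of 8 T cell genes 6 rose (1 among the 4 libraries alone), of 7 mast cell genes 5 rose and 1 fell (2 and 0, and 4 and 1 of 6 without Ms4a2, which reached the filter only through refractory telogen), and all 3 neutrophil genes tested fell (1 among the 4 libraries), among them S100a8, at 99.9 and 138 FPKM in catagen and 29.8 and 35.6 in refractory telogen, which stressed keratinocytes can also make. Of 15 immediate early genes 7 rose and 1 fell (5 and 0 among the 4 libraries alone), with Fos at 44.8 and 39.9 FPKM in catagen and 152 and 164 in refractory telogen. With each library left out in turn, 5, 5, 4 and 6 T cell genes were higher and 3, 2, 3 and 2 neutrophil genes lower. Immediate early genes are known to respond quickly to the handling of tissue, and their part in other differences was not tested.

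Genes of simple epithelia and of secretory glands were higher in refractory telogen, several from near 0 in catagen. Of 10 simple epithelial keratins and uroplakins 9 rose and 1 fell (4 and 1 in the 4 libraries alone), and without each library in turn 7, 7, 4 and 6 were higher, of 10, 10, 7 and 7 that reached the filter. Upk3a, Upk3b and Krt20 reached it only through the refractory telogen libraries, so that they could only be higher there, and of the other 7 genes 6 rose and 1 fell. Upk3a, a uroplakin of barrier epithelia (chr15:85017141-85022547), was listed at 0 in both catagen libraries and was at 25 and 20.7 FPKM in refractory telogen. Krt19, a keratin of simple and glandular epithelia and of bulge cells (chr11:100140810-100148665), was at 3.55 and 2.63 FPKM in catagen and 58.1 and 52.9 in refractory telogen, an 18-fold higher mean (3.80 ± 0.26, adjusted p = 4.33e-12). Krt8 was at 4 and 4.11 FPKM in catagen and 24.1 and 28.6 in refractory telogen, and its partner Krt18 rose by 1.33. The gene that fell was Upk1a, from 3.65 and 4.22 to 0.61 and 0.26 FPKM.

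Of 6 mammary gland genes tested 5 rose and 1 fell, 4 of the rises also in the 4 libraries alone, and without Muc1, which reached the filter only through refractory telogen, 4 of 5 rose. Csn3, a casein, was at 3.31 and 3.97 FPKM in catagen and 13 and 22.6 in refractory telogen, Cited1, a cofactor found in mammary epithelium, at 1.43 and 0.53 FPKM in catagen and 22.6 and 33 in refractory telogen, and the whey protein gene Wfdc18 at 61.6 and 64.9 FPKM in catagen and 185 and 238 in refractory telogen. Other large rises had no list. Slc5a2, a renal glucose transporter, was listed at 0 in catagen and was at 19.1 and 19.5 FPKM, and Fgg, a fibrinogen chain, was listed at 0 and was at 10.6 and 10.4. Serpinb6d, a protease inhibitor, was at 1.15 and 1.26 FPKM in catagen and 29.7 and 36.4 in refractory telogen. Ltf and Aqp5, genes of secretory epithelia chosen after their values were seen, were listed at 0 and 0 and at 0.33 and 0.66 FPKM in catagen, and were at 9.87 and 7.61 and at 11.3 and 12.9 in refractory telogen. The major urinary protein genes Mup19, Mup11 and Mup9 were also among the largest rises, but their catagen replicates lay far apart (Mup11 at 0.34 and 29.9 FPKM), Mup11 did not pass without catagen replicate 1 (adjusted p = 0.0719), and Mup9 did not pass without catagen replicate 2 or refractory telogen replicate 1 (adjusted p = 0.223 and 0.0943). Catagen replicates lay closer for Mup10, at 229 and 293 FPKM in catagen and 1716 and 1421 in refractory telogen. The same held for Mup2, at 1.73 and 1.25 FPKM in catagen and 20.9 and 13.5 in refractory telogen. The copies of this family are near-identical.

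Over the ventral series, early anagen held the next highest levels of several of these genes, with Upk3a at 3.11, 3.66 and 5.94 FPKM, Krt19 at 23.6, 24.2 and 25.7 and Fgg at 4.51, 4.52 and 4.97. Krtap20-2 was likewise at 1032, 866 and 807 FPKM in early anagen and at 1.66, 1.22 and 1.02 in competent telogen. In dorsal refractory telogen Krt19 was at 1.18 and 1.65 FPKM and Upk3a was listed at 0, and in chin refractory telogen Krt19 was at 3.62, 2.61 and 2.98 and Upk3a was listed at 0. Levels of the ventral refractory telogen libraries were thus not reached in dorsal or chin skin at the same stage.

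**Figure D4:**
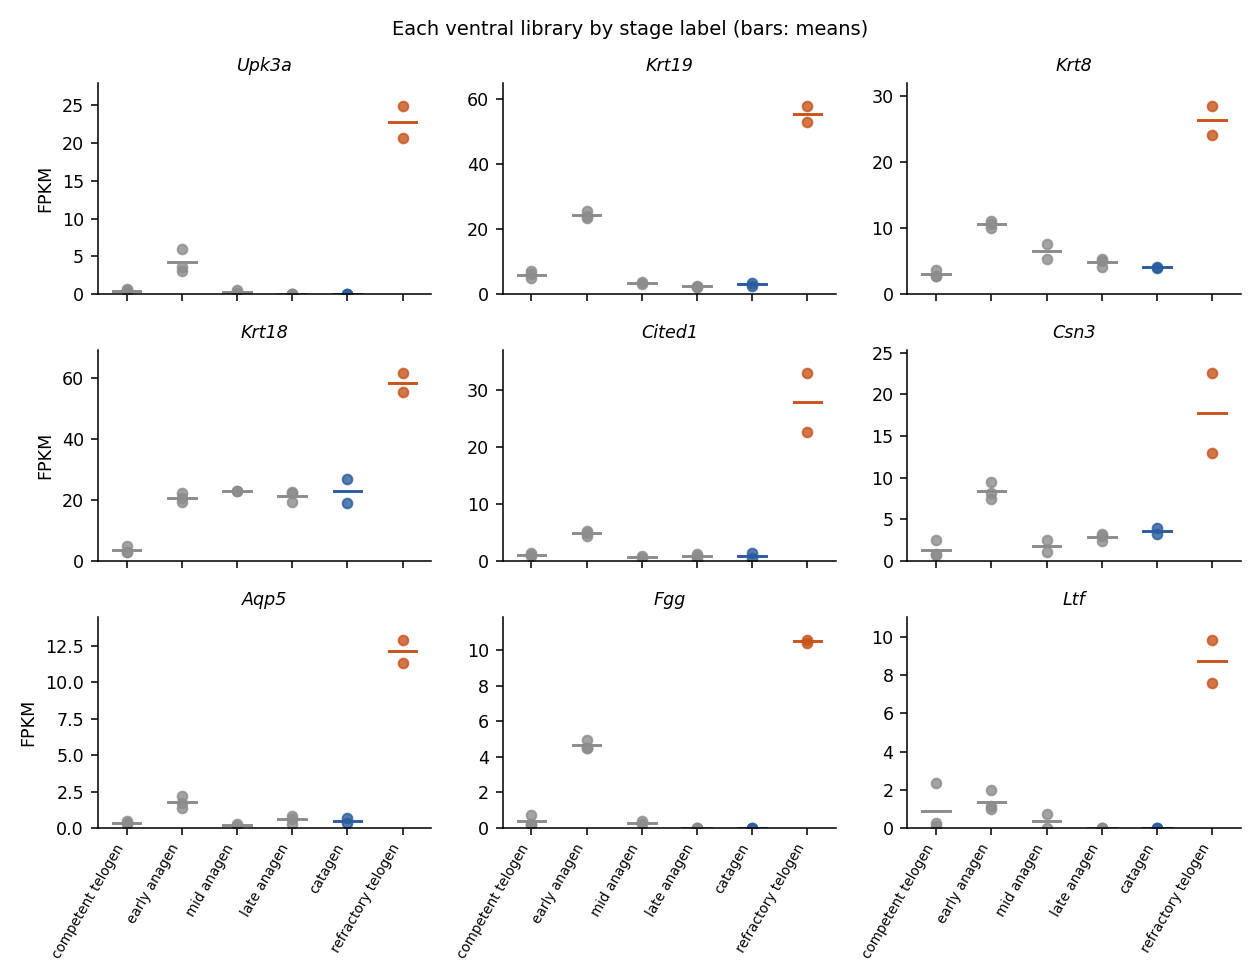
Levels in FPKM of 9 simple epithelial and glandular genes in the ventral libraries by stage label, 1 point per library and a bar at the mean, catagen in blue and refractory telogen in orange. Both refractory telogen libraries lie above all other ventral libraries in each panel, and early anagen comes next for Upk3a, Krt19, Krt8, Cited1, Csn3, Aqp5 and Fgg.

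The ventral change was then set against the same change in dorsal and in chin skin, with no library shared between domains. The dorsal change differed from the ventral one for 5926 of 17606 genes, with 3152 (17.9%) above and 2774 (15.8%) below it in ventral skin. The chin change differed for 4024 of 18560 genes, with 960 (5.17%) above and 3064 (16.5%) below. Above and below refer to the ventral log2 difference minus that of the other domain. The dorsal catagen libraries stood apart for some genes, with Krt80 at 0.24 and 0.86 FPKM against 61.4 and 51.9 in ventral catagen and Lars2 at 340.4 and 444 against 8431 and 8920.3, and the largest differences below the dorsal change rested on such values. The share above was 23.9% for chin, and it was 53.3% with library scaling by median ratios and 53.6% with quantile-normalized values, which moved the median difference of all genes from -0.21 to -0.03 and to -0.005. Without ventral refractory telogen replicate 1 the counts against chin were 995 above and 4968 below, and without replicate 2 they were 1614 and 2170. Against dorsal they were 2858 and 3763 without replicate 1 and 3758 and 2242 without replicate 2. The split by direction depended on which of these libraries was used and, against chin, on the scaling, and the differences given here are to be read against the median of -0.21.

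Pigment and cell cycle genes fell in all 3 domains. In dorsal skin 13 of 15 melanocyte genes and 37 of 38 cell cycle genes fell, against 32.0% of all genes (25.1% rose), and in chin skin 14 of 15 and 36 of 38 fell, against 21.2% (36.4% rose). The size differed between domains, since 14 of 38 cell cycle genes and 6 of 15 melanocyte genes had a smaller fall in ventral than in dorsal skin. Of all genes 17.9% were above the dorsal change. Dct fell by 4.46 in ventral skin, from 342 and 354 to 2.9 and 3.91 FPKM in dorsal skin and from 89, 83.6 and 86.6 to 8.04, 7.87 and 8.96 in chin. Gli1 fell more in ventral skin than in both other domains, with differences of -1.16 ± 0.19 from dorsal and -0.96 ± 0.18 from chin. It reached the ventral filter only through catagen, which favoured a place below.

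Fat, matrix, muscle and macrophage genes were above the dorsal change more often than the 17.9% of all genes. The mean distance of ventral catagen libraries was 0.837 from dorsal catagen and 0.749 from dorsal refractory telogen libraries. A domain difference and unlike stages under the same label thus cannot be told apart here either. The ventral change was above the dorsal change for 16 of 23 adipocyte genes, 17 of 24 dermal matrix genes, 17 of 22 skeletal muscle genes and 13 of 20 macrophage genes. Of the genes in these lists, 2 skeletal muscle genes and 1 macrophage gene reached the ventral filter only through refractory telogen. Thrsp was at 70.4 and 71.1 FPKM in dorsal catagen and 6.78 and 7.28 in dorsal refractory telogen, so it fell where the ventral level rose, a difference of 6.50 ± 0.39 (adjusted p = 9.79e-13). Retn and Adipoq showed the same opposite directions, with differences of 5.51 ± 0.29 and 4.38 ± 0.32. Igf1 went from 9.29 and 9.54 to 3.12 and 4.15 FPKM in dorsal skin and rose in ventral skin. In chin skin these genes rose as in ventral skin, where 20 of 23 adipocyte genes were higher in refractory telogen, and Adipoq differed by 0.46 ± 0.29 from chin (adjusted p = 0.266). For skeletal muscle the chin rise was above the ventral rise in 8 of 22 genes.

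Changes of shaft and sheath genes differed between ventral and chin skin. All 9 inner root sheath genes, 11 of 14 shaft keratins and 44 of 56 keratin-associated proteins were above the chin change. Of all genes 5.17% were. In chin skin the medians of these lists were -1.99, -1.55 and -0.97, against -0.52, -0.42 and 0.06 in ventral skin. Krt35 went from 1145, 1184 and 1183 to 116, 215 and 103 FPKM in chin and Krt71 from 11949, 11163 and 11405 to 2471, 3233 and 2369.6. In dorsal skin the shaft keratins had a median of 0.27, and 7 of 14 were below the dorsal change in ventral skin and 1 above. Mean log2 levels of the shaft keratins in refractory telogen were 6.77 in chin, 8.235 in ventral and 8.05 in dorsal skin (medians over libraries). In catagen they were 8.45, 8.65 and 7.73. A domain difference and unlike follicle stages under the same label cannot be told apart here.

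Simple epithelial and mammary gland genes were more often above than below the change of each other domain. Of 10 simple epithelial genes 6 were above the dorsal and 6 above the chin change, and of 6 mammary genes 5 and 4. Of all genes 17.9% and 5.17% were above. In each comparison 1 simple epithelial gene was below and no mammary gene was. Upk3a, Upk3b, Krt20 and Muc1 reached the ventral filter only through refractory telogen, which favoured a place above. Counts without them were not made here. Krt19 differed by 4.77 ± 0.38 from dorsal and by 3.89 ± 0.34 from chin, and Krt8 by 3.14 ± 0.22 and 2.64 ± 0.20. Krtap20-2 rose in all 3 domains. It went from 8.27 and 11.3 to 1848 and 1862 FPKM in dorsal skin, a rise that did not differ from the ventral one at the threshold (difference 0.50 ± 0.34, adjusted p = 0.28), and from 39, 38 and 34.5 to 618, 441 and 704 in chin, where the rise was smaller by 4.02 ± 0.31. The neighbouring model Gm6358 went from 26.8 and 21.6 to 8504 and 9089.8 FPKM in dorsal skin and from 116, 147 and 159 to 3994, 2325 and 4184 in chin.

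**Figure D5:**
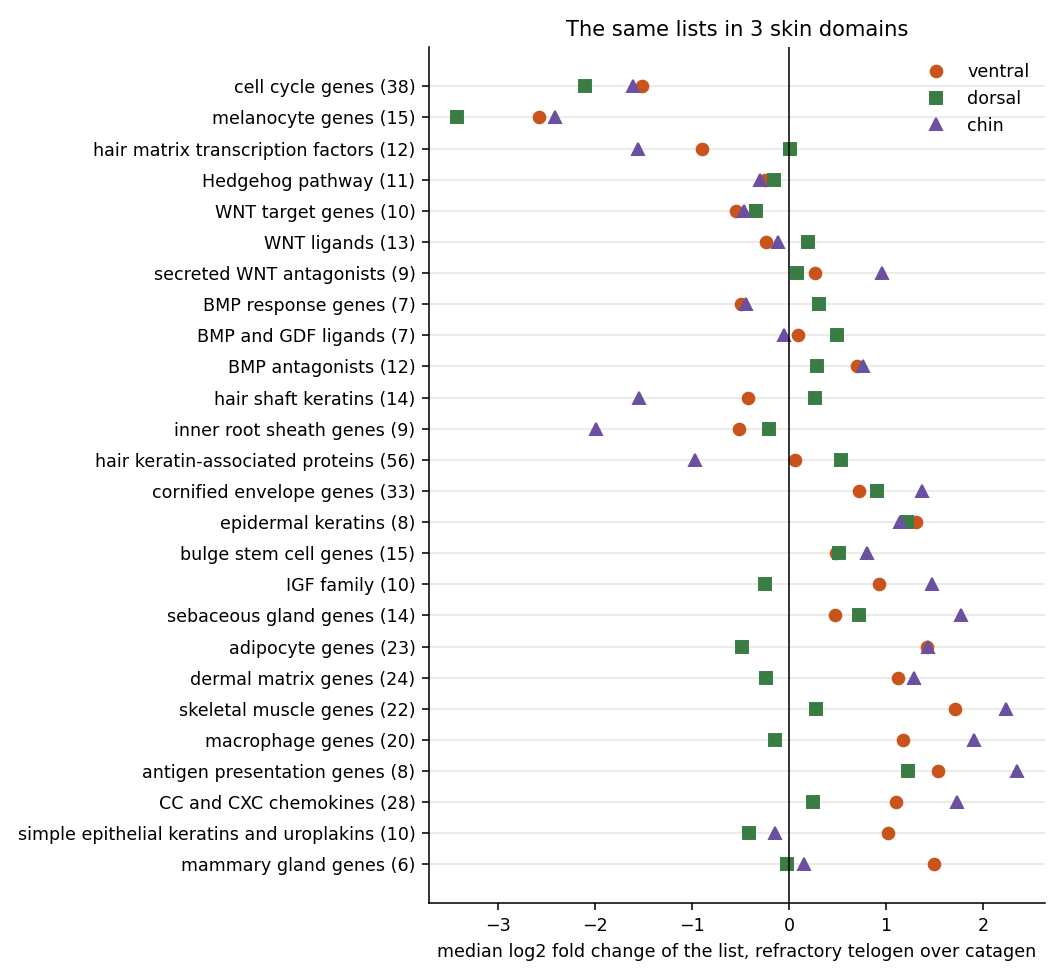
Median log2 difference of refractory telogen over catagen (horizontal) for each gene list, with the number of genes tested in ventral skin in parentheses, in ventral (circles), dorsal (squares) and chin skin (triangles). Cell cycle and melanocyte genes are below 0 in all domains, adipocyte and dermal matrix genes are above 0 in ventral and chin skin and below 0 in dorsal skin, and shaft keratins are lowest in chin.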

How the data were processed

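Total RNA of whole skin was made into SMART-seq2 libraries and sequenced as paired ends. The authors aligned reads to mm10 with GENCODE vM8, quantified them with RSEM 1.2.25, corrected samples for batches that are not named, and deposited FPKM per gene with 2 decimals. The paper does not say whether the deposited values are the corrected ones. The authors' test with edgeR took FPKM as input and was not repeated, since it is a model for counts and none were used here. Libraries were grouped by column name. Genes that reached 0.5 FPKM in 2 or more of the libraries compared were tested on log2(FPKM + 1) with limma 3.58.1 (R 4.3.3, variance trend, two-sided, Benjamini-Hochberg, threshold 0.05), with 43 libraries as 18 groups, and the step was tested on simulated data. Changes between domains were compared as differences of differences. Named genes were the 12 largest in each direction that passed, with at least 5 FPKM and no overlap between the groups of libraries. Up to 4 genes a list with the smallest adjusted p, signaling and bulge genes and marker genes were added. So were the 5 largest differences from each domain in each direction, among genes whose ventral library changes lay outside that domain's range. Others are said to be chosen after their values were seen. Members and lists were chosen with earlier results of these data known. Depth was estimated from FPKM steps of 8537 single-transcript genes. Gene positions came from GENCODE vM21 on GRCm38. Alternatives were other pseudocounts, filters, scalings, weights, blocks, libraries in the fit and each library left out. Python 3.11.15, numpy 2.4.6, pandas 2.3.3 and matplotlib 3.10.9 were used. One item is not reported here.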

Additional observations from a re-analysis of the deposited data

Results flagged for a closer look

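The results listed here are the largest differences between the ventral change from catagen to refractory telogen and the same change in another domain, each tested in the limma fit of 43 libraries, with log2 values and adjusted p. Against the dorsal change, the adipocyte genes Thrsp and Retn were above by 6.50 (adjusted p = 9.79e-13) and 5.51 (adjusted p = 4.38e-14), and the means of each gene rose from catagen to refractory telogen in ventral skin and fell in dorsal skin. The major urinary protein genes Mup19 and Mup11, which have near-identical copies, were above by 7.59 (adjusted p = 1.90e-05) and 6.77 (adjusted p = 1.49e-04). The pseudogene Rpl17-ps5 was above by 11.07 (adjusted p = 0.00364), with 0 and 4.8 FPKM in catagen and 100.1 and 13.8 in refractory telogen of ventral skin, 151 and 116 FPKM in dorsal catagen and 0 listed in both dorsal refractory telogen libraries.

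Below the dorsal change were Rps27a-ps2 by -8.97 (adjusted p = 4.38e-14), Krt80 by -5.83 (adjusted p = 1.28e-09), Lars2 by -5.45 (adjusted p = 1.89e-11), Lypla2 by -4.94 (adjusted p = 9.79e-15) and Rps12 by -4.78 (adjusted p = 0.0186). In dorsal catagen Rps27a-ps2 and Rps12 were listed at 0 in both libraries, Lypla2 was at 1.77 and 2.77 FPKM and Krt80 at 0.24 and 0.86, levels far from those of the other catagen groups. The ventral difference of Krt80 itself was -1.28 without refractory telogen replicate 1 and 1.23 without replicate 2, and Lars2 did not pass in ventral skin without replicate 1 (-0.32, adjusted p = 0.295).

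Against the chin change, the genes above were Upk3a by 4.61 (adjusted p = 1.28e-15), Krtap20-2 by 4.02 (adjusted p = 4.22e-10), Krt19 by 3.89 (adjusted p = 3.94e-09), Cited1 by 3.58 (adjusted p = 6.58e-08) and the pseudogene Eif4a-ps4 by 5.07 (adjusted p = 3.54e-04), which was listed at 0 in 3 of the 4 ventral libraries. Below it were Erdr1 by -3.19 (adjusted p = 1.13e-12), Serpinb6e by -2.85 (adjusted p = 4.59e-07), the muscle genes Sln by -2.85 (adjusted p = 0.00437) and Fhl3 by -2.78 (adjusted p = 9.72e-05), and Tstd1 by -2.77 (adjusted p = 6.79e-04). Erdr1 was at 146 and 120.2 FPKM in catagen and 37 and 42.8 in refractory telogen of ventral skin and rose in chin, from 51, 43.3 and 49.2 to 135, 163 and 112 FPKM. Upk3a reached the ventral filter only through the refractory telogen libraries.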

How the results depend on the processing

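In sensitivity to processing, the counts of genes moved most with the source of the spread. Genes higher in ventral refractory telogen numbered 3158 in the fit of 43 libraries, 1017 with library weights, 597 with only the groups compared and 1900 at a minimum of 5 FPKM, where fewer genes were tested. Genes lower numbered 4060, 965 with library weights and 439 with only the groups compared. Differences from dorsal numbered 5926, 3401 with weights and 2842 with only the groups compared, and differences from chin 4024, 1186 and 1184. With the replicate number as a block and only the groups compared, the counts were 830 higher, 747 lower, 2348 against dorsal and 378 against chin. Deviations of libraries with the same replicate number correlated at 0.0522, a value that cannot exclude a shared mouse, day or batch. The labels do not say what the number marks. A block over all 43 libraries gave 3131 higher and 4051 lower.

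Without 1 library at a time, genes higher ranged from 2324 to 3494, genes lower from 2796 to 5032, differences from dorsal from 4933 to 6621 and differences from chin from 2794 to 5963. No named gene that was called changed sign, but 5 that were not called passed in the opposite direction without 1 refractory telogen library, at 0.56 for Krt39, 1.23 for Krt80 and 0.63 for Wnt9a without replicate 2 and -0.42 for Krt40 and -0.39 for Twsg1 without replicate 1. When the other library was left out, these 5 passed with the other sign, at -0.88 for Krt39, -1.28 for Krt80, -0.63 for Wnt9a, 0.46 for Krt40 and 1.05 for Twsg1. Of the named gene values under the alternatives, 4929 kept their call, 431 lost it and 49 gained it with the same sign, and 127 of those lost were with only the groups compared. The depth of the libraries was only estimated, from FPKM steps, and 2 libraries a group limit what could be detected. The cause of these changes was not tested.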

Other observations

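Gene lists that the comparisons above leave out are given here, with the counts among the 4 libraries alone in parentheses. Of all genes tested 19.4% rose and 25.0% fell (3.67% and 2.70%), and counts near these shares say nothing particular about a list. Of 13 dermal papilla genes 3 rose and 5 fell (1 and 1), with Crabp1 higher and Corin lower. Hhip and Scube3 reached the filter only through catagen, and without them 3 rose and 3 fell. Of 5 companion layer and stress keratins 3 rose and 1 fell (2 and 0), with a median log2 difference of 0.78, and of 11 Notch genes 2 rose and 4 fell (0 and 1). Of 16 circadian clock genes 7 rose and 3 fell (none), and 6 rose without Npas2, which reached the filter only through refractory telogen. Of 15 trunk Hox genes tested 5 rose and 2 fell (none), and without 3 genes that reached the filter only through refractory telogen 3 of 12 rose. One cartilage list member, Sox5, reached the filter and fell, with a difference of -0.84, and did not pass among the 4 libraries alone.

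Leaving out catagen replicate 1, catagen replicate 2, refractory telogen replicate 1 and refractory telogen replicate 2 in that order gave 4, 4, 2 and 7 clock genes higher, 5, 2, 3 and 3 Hox genes higher, 3, 3, 6 and 4 dermal papilla genes lower and 4, 4, 4 and 2 Notch genes lower. Of 83 respiratory chain genes 8 rose and 13 fell (2 and 0), and of 85 cytosolic ribosomal protein genes 1 rose and 13 fell (0 and 1). For these lists the refractory telogen library used decided the count. Without replicate 1, 24 respiratory and 15 ribosomal genes were higher and 6 and 5 lower, and without replicate 2, 3 and 1 were higher and 32 and 67 lower.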
